A study of Mus musculus with 5 samples.

Results

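NEUROD2 is a basic helix-loop-helix (bHLH) transcription factor of excitatory cortical neurons, and the regions described here are those of its distal binding sites whose only E-boxes of the main kinds are GA-centred. A region counted when its midpoint lay more than 1 kb and at most 50 kb from the closest transcription start site (TSS), when its central 200 bp held at least 1 hexamer CAGATG or its reverse complement CATCTG, and when that window held neither CAGCTG (GC-centred) nor CATATG (TA-centred). Overlapping peaks of 3 antibodies were merged, and of the 32261 merged regions that 2 or more antibodies shared, 19911 were distal and 6100 met this rule, which is 30.6% of the distal and 18.9% of all regions. They are called GA-only regions below. Other E-boxes, such as CACCTG, were allowed beside the GA-centred one, and 2373 of the 6100 (38.9%) had none. Apart from the presence of a peak, no measured binding value entered the rule.

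The cerebral cortex of BALB/c mouse embryos was taken at E14.5, and its crosslinked chromatin was precipitated with 3 antibodies against NEUROD2 (ab1 raised in mouse, ab2 and ab3 in rabbit). Precipitates with 2 antibodies against GFP, a protein that these embryos do not make, served as controls for peak calling, ab2 and ab3 sharing the rabbit one. Each antibody gave 1 library from many pooled embryos of several mothers, so the 3 NEUROD2 libraries are 3 measurements of 1 condition and not biological replicates, and no genotype or treatment was contrasted. Each peak has a score (the peak caller's p-value as −10 log10 p), and scores are not scaled between libraries. The peak lists held 51841 (ab1), 35310 (ab2) and 7470 (ab3) peaks and give no read depth, so the 95% intervals below, Wilson or Newcombe for shares and from fits of the log10 score with robust standard errors for score ratios, cover the spread over regions or hexamers only. Those over hexamers treat the hexamers of a region as independent, which can make them too narrow.

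bHLH factors bind DNA as pairs of proteins, and each partner contacts one side of the E-box CANNTG. The middle bases and the bases just outside the hexamer differ in preference between bHLH families. Because CAGATG is not its own reverse complement, a GA-centred E-box has a direction and is made of unlike sides, whereas the GC- and TA-centred E-boxes read the same on both strands. In the embryonic cortex the proneural and neuronal bHLH factors, among them the NEUROG and NEUROD families, are known for driving progenitors into neurons and neurons into their mature state.

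To show what a GA-only site looks like, the 8 regions with the highest mean rank of the score over the 3 antibodies (on chromosomes 1 to 17, 19 and X) and the 2 regions closest to the median rank of the regions with all 3 antibodies (called middle) are given with 30 bases round the hexamer nearest the midpoint. Capitals mark the hexamer, positions are in mm10, and every site is read on the strand on which the hexamer is CAGATG.
strongest 1, plus strand, chr10:84358229-84358258 (intergenic, Nuak1 the closest coding TSS): attatgagactcCAGATGgcactctgggct
strongest 2, plus strand, chr7:102369885-102369914 (intron of Stim1): cagcagctccccCAGATGgcctccgtcatg
strongest 3, plus strand, chr16:96249833-96249862 (intron of B3galt5): tttaactctcacCAGATGgctgtggagggc
strongest 4, minus strand, chr6:99969126-99969155 (intron of Gm33201): agtgcctcccagCAGATGgctatgagaaag
strongest 5, minus strand, chr2:153071870-153071899 (exon of Ccm2l): cagtccaggctgCAGATGgtgtggcgtcgc
strongest 6, minus strand, chr1:132591710-132591739 (intron of Nfasc, Cntn2 the closest TSS): tgccagttatatCAGATGttgtcagctttg
strongest 7, plus strand, chr2:166637054-166637083 (intron of Prex1): ccaggagggagaCAGATGgtacagtacaac
strongest 8, plus strand, chr7:137272358-137272387 (intron of Ebf3): aagctgtgcccaCAGATGgccgagcatttg
middle 1, plus strand, chr4:139933639-139933668 (intron of 4933427I22Rik, Klhdc7a the closest coding TSS): ggctgctggaggCAGATGgtggttcagttc
middle 2, minus strand, chr11:71699030-71699059 (intergenic, Wscd1 the closest coding TSS): ttggattcaggcCAGATGgtataatagaga
In 9 of these 10 sites the base after the hexamer was G, the exception being the site of Nfasc and Cntn2. The whole central windows of the first 4 regions follow on the plus strand, with each GA-centred hexamer, and no other E-box, in capitals. These regions are 1131 to 1758 bp wide, so the windows of 200 bp show a part of each.
strongest 1, plus strand, chr10:84358154-84358353: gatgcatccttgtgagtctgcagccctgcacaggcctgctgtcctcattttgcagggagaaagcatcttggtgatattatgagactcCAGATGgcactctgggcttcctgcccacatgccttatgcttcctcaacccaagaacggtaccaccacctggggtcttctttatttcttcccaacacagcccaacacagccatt
strongest 2, plus strand, chr7:102369835-102370034: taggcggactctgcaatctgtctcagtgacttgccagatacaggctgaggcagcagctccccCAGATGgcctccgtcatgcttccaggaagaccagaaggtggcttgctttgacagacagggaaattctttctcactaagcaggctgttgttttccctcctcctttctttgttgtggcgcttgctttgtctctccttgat
strongest 3, plus strand, chr16:96249758-96249957: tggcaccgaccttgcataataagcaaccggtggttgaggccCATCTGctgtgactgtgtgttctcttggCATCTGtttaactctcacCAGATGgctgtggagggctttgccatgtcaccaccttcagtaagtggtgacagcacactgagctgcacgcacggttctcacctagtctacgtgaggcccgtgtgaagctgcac
strongest 4, plus strand, chr6:99969017-99969216: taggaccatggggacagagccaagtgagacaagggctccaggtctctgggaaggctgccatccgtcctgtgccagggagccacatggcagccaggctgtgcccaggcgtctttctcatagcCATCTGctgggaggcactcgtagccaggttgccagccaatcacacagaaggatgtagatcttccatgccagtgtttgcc
The window in B3galt5 held 3 GA-centred hexamers and the other windows held 1 each. All 8 regions had an ab1 score of 3100, a value shared by 723 peaks of the 3 lists, while their ab2 scores ran from 2300 to 3100 and their ab3 scores from 799.54 to 1609. The 2 middle regions had ab1 scores of 607 and 757 and ab2 scores of 729 and 324, above the medians of all GA-only regions, since only regions with all 3 antibodies entered that choice.

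The base 3′ of the hexamer set GA-only regions apart from the sequence around them. Of the 8296 GA-centred hexamers in the 6100 windows, 56.8% were followed by G, against 29.3% of the 2077 GA-centred hexamers in the flanks, 200 bp windows that lie 1000 bp away from the region on its left and right. The difference was 27.5 percentage points (95% interval 25.2 to 29.6). A fell from 23.4% of flanking hexamers to 9.81% in the centres, T from 24.6% to 15.03% and C from 22.8% to 18.4%. On the 5′ side, T preceded 7.46% of hexamers in the centres and 21.2% in the flanks, a difference of −13.7 points (−15.6 to −11.9), while G preceded 30.2% and 22.5%. A was the most frequent base there, at 37.1% and 32.0%, a difference of 5.11 points (2.82 to 7.34). C preceded 25.2% and 24.4%, a difference whose interval held 0 (−1.23 to 2.91 points). Read on the opposite strand, T before CAGATG is A after CATCTG, so a 3′ A was rare on either side of the E-box.

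Combined, the most frequent 8-base word was ACAGATGG with 21.2% of the hexamers against 11.2% in the flanks. The words with the highest ratio of centre to flank were GCAGATGG (17.1% against 6.55%, 2.61-fold) and CCAGATGG (15.6% against 6.40%, 2.43-fold). The word with the lowest ratio was TCAGATGA, at 1.31% of the hexamers in the centres and 6.07% in the flanks. Thus the 16 words around 1 hexamer ranged from 2.61-fold to 0.217-fold.

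Each antibody's own distal peaks, classed by the same rule without reference to the other antibodies, gave like values. G followed 54.9% of the hexamers of ab1 peaks, 56.9% of those of ab2 peaks and 61.5% of those of ab3 peaks, which is 57.7 ± 3.37% (SD, n = 3 antibodies) against 28.6 ± 0.395% in the flanks. The share was highest for ab3, which had the fewest peaks. Within GA-only regions it was 59.1% (56.99 to 61.2) where all 3 antibodies had a peak and 56.0% (54.7 to 57.2) where 2 had one. In distal regions that held GA-centred together with GC- or TA-centred hexamers, G followed 52.6% of the GA-centred ones (51.1 to 54.1). It followed 55.8% in GA-only regions beyond 50 kb and 49.2% (45.5 to 52.8) in those within 1 kb of a TSS. GA-only windows without any base marked as a repeat in the reference gave 55.0%, and unmasked flanking hexamers gave 27.0%.

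GA-only was the most common E-box class of distal regions. It took 30.6% of the central windows, against 13.5% of the flanks on either side, and GC-only windows took 16.0% against 7.51% and 7.55%. Windows that held hexamers of several of the GA-, GC- and TA-centred kinds took 18.9%, against 2.79% and 2.81% of the flanks. The antibodies' own distal peaks were GA-only in 30.8% (ab1), 30.6% (ab2) and 33.7% (ab3) of cases, or 31.7 ± 1.75% (SD, n = 3), and GC-only in 16.3 ± 0.604%, so that GA-only peaks were 1.955 ± 0.183 times as frequent. The flanks too were GA-only more often than GC-only (13.5% against 7.51% on the left), and a preference of NEUROD2 between these hexamers was not tested. The share of GA-only regions was 28.6% (27.1 to 30.1) at 1 to 5 kb from a TSS, 29.0% at 5 to 10 kb, 31.2% at 10 to 20 kb and 32.0% (31.0 to 33.0) at 20 to 50 kb. It stood at 11.7% (10.8 to 12.6) within 1 kb and at 32.2% (31.1 to 33.3) beyond 50 kb. Hence promoter-near regions differed from the rest far more than the distal bins differed among themselves. By chromosome it ran from 28.8% to 33.7%, leaving aside chromosome Y with 1 distal region.

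ab1 had a peak in 6096 of the 6100 regions, ab2 in 6087 and ab3 in 1458. In 4642 regions the peaks were those of ab1 and ab2 alone, in 13 those of ab1 and ab3, and in 4 those of ab2 and ab3. All 3 antibodies had a peak in 1441 regions, or 23.6% (22.6 to 24.7), close to the 24.4% of all distal regions. The lowest, median and highest scores were 50.1, 268 and 3216 for ab1, 50 (the minimum of the files), 138 and 3137 for ab2, and 50.1, 89.3 and 1609 for ab3. At the distance limits of the rule, the GA-only regions just inside lay 1001 and 49994 bp from a TSS with ab1 scores of 681 and 382, and those just outside lay at 998 and 50051 bp with ab1 scores of 171 and 77.1. Over GA-only regions the log10 scores of ab1 and ab2 had a Pearson correlation of 0.896 (Spearman 0.859, 6083 regions), those of ab1 and ab3 one of 0.685 (0.743, 1454 regions), and those of ab2 and ab3 one of 0.764 (0.771, 1445 regions). These describe the libraries, since ab2 and ab3 share a control and all 3 come from like chromatin, and the other distal regions gave 0.896, 0.689 and 0.780.

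Compared with GC-only regions, GA-only regions differed little in score. The 3190 GC-only regions had peaks of all 3 antibodies in 21.5% of cases, 2.15 points below GA-only regions (0.353 to 3.91). The ratio of the geometric mean scores, GA-only to GC-only, was 1.01 for ab1 (0.964 to 1.05), 1.05 for ab2 (1.01 to 1.09) and 0.971 for ab3 (0.916 to 1.03). The antibodies differed in direction, and an exact sign-flip permutation test over the 3 libraries gave p = 0.75 (two-sided, the smallest p that 3 libraries allow being 0.25). Among peaks with a score of at least 100 the difference in the share with all 3 antibodies was 0.373 points (−1.68 to 2.35) and that of ab2 0.00795 on the log10 scale (−0.0111 to 0.0270), so neither interval then lay above 0. The interval of the share also held 0 with protein-coding TSSs (−0.0980 to 4.47), in 100 bp windows (−0.955 to 3.02) and with no other E-box (−1.41 to 2.99). That of ab2 held 0 under the same 3 alternatives (−0.00171 to 0.0427, −0.00571 to 0.0324 and −0.00315 to 0.0391), without ab1 (−0.0306 to 0.0338) and as a difference of median ranks (−0.227 to 3.96). Other alternatives gave larger differences. In 400 bp windows that of the share was 3.85 points (2.04 to 5.61), that of ab2 0.0401 (0.0227 to 0.0575) and that of ab1 0.0205 (0.00123 to 0.0398), while that of ab3 held 0 (−0.0266 to 0.0277). With the midpoint of the highest peak the share differed by 3.25 points (1.47 to 4.99). The 1020 TA-only regions had all 3 antibodies in 22.9% of cases, a difference of 0.682 points (−2.20 to 3.38), and score ratios of 1.03 (0.958 to 1.10), 1.02 (0.958 to 1.08) and 1.00 (0.919 to 1.09). The exact sign-flip permutation p was 0.25.

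Regions with no E-box of any kind in the central 200 bp (2338) had higher scores than GA-only regions with each antibody, though for ab3 the interval held 0 under several alternatives given below. The class does not tell whether E-boxes lay in the rest of the region. Their median scores were 327, 165 and 91.1, against 268, 138 and 89.3, and the ratios GA-only to no E-box were 0.837 (0.796 to 0.880), 0.867 (0.828 to 0.907) and 0.913 (0.856 to 0.974). All 3 ratios were below 1, which gives the smallest exact sign-flip permutation p of 0.25. All 3 antibodies had a peak in 26.2% of them, and the share of GA-only regions minus theirs was −2.55 points (−4.65 to −0.503). The interval of that share held 0 among peaks with a score of at least 100 (−1.22, −3.49 to 0.941), with protein-coding TSSs (−1.49, −4.13 to 1.07) and in 400 bp windows (−1.39, −5.48 to 2.35). That of the ab3 score held 0 on the log10 scale with the midpoint of the highest peak (−0.0274, −0.0554 to 0.000519), without ab1 (−0.0213, −0.0506 to 0.00796) and in 400 bp windows (−0.0436, −0.0986 to 0.0113), and as a difference of median ranks (−1.64, −6.45 to 3.16). In 400 bp windows that of ab2 held 0 too (−0.0353, −0.0735 to 0.00282). The width of the regions moved with this difference: it was 794.5 bp in the median for GA-only, 808 bp for GC-only and 795.5 bp for TA-only regions, but 1128 bp for regions with no E-box. With the log10 width in the fit the difference turned round, to 0.152 (0.133 to 0.171), 0.143 (0.126 to 0.160) and 0.0493 (0.0220 to 0.0766) on the log10 scale in favour of GA-only regions. Since the width of a merged region and its score come from the same peaks, what the width stands for was not tested.

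**Figure D1:**
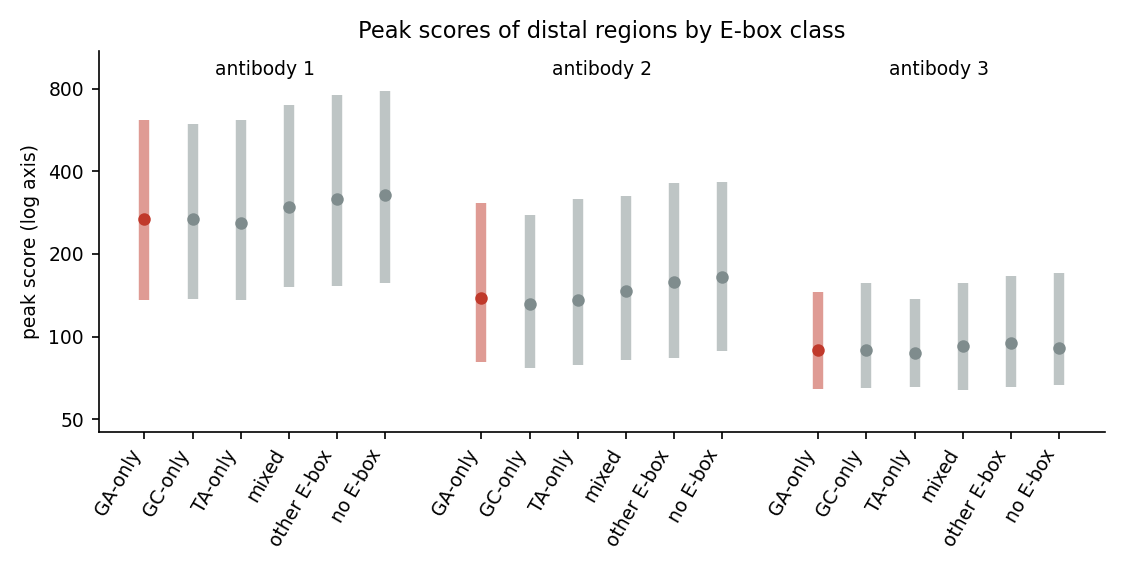
Peak scores (log axis) of distal regions in 6 E-box classes for each of 3 antibodies, GA-only regions in red. Points are medians and bars span the 25th to 75th percentiles over regions. For ab1 the GA-only median of 268 sat beside that of GC-only regions (268), below the 327 of regions with no E-box, and the bars of all classes overlapped widely.

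Most GA-only regions held 1 GA-centred hexamer in the central 200 bp. The number was 1 in 4393 regions (72.0%), 2 in 1396, 3 in 241 and 4 or more in 70. Another E-box lay in the same window in 3727 regions. The number depends on the window, since 41.2% of the GA-only regions had 2 or more hexamers when windows of 400 bp were used, against 28.0% here. Regions with 3 or more hexamers carried all 3 antibodies in 33.4% of cases, and those with 1 hexamer in 22.4%, a difference of 11 points (5.83 to 16.5), and their scores were 1.26 times as high for ab1 (1.12 to 1.43), 1.15 times for ab2 (1.03 to 1.29) and 1.21 times for ab3 (1.05 to 1.40). With 2 hexamers the share was 25.1%, 2.70 points above 1 hexamer (0.160 to 5.33), while the score ratios of 1.05, 1.04 and 0.981 had intervals that held 1. By contrast the base after a single hexamer did not separate scores. Regions with A after it had 1.04 times (0.923 to 1.16) the ab1 score of those with G, those with C 0.976 times (0.898 to 1.06) and those with T 1.03 times (0.942 to 1.13). The rare regions with T before it had 1.16 times (1.01 to 1.33) the ab1 score of those with A, at medians of 304 and 246, with ratios of 1.13 (1.00 to 1.28) for ab2 and 1.10 (0.917 to 1.33) for ab3, the last interval holding 1. Those with G before it had 1.12 times (1.04 to 1.20) the ab1 score of those with A, while their ratios of 1.06 (0.995 to 1.14) for ab2 and 0.981 (0.895 to 1.07) for ab3 had intervals that held 1. A total of 15 such contrasts were made without adjustment, and the intervals cover counting error only.

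Among the regions with many hexamers were tandem arrays. 8 regions held 9 or more, 7 of them without a base marked as a repeat in the reference, and ab3 had a peak in 5 of the 8. The region with the most, between genes at 91901 bp from the TSS of Trpc4, a cation channel gene, held 18 hexamers in an array with short units, with scores of 130 (ab1), 152 (ab2) and 68.1 (ab3). Its window is shown with the hexamers in capitals.
Most hexamers, plus strand, chr3:54064056-54064255: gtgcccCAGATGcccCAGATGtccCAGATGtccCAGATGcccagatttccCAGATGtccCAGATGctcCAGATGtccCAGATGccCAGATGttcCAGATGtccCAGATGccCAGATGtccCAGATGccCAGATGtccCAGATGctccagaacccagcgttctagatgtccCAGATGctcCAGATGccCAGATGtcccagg
Such arrays were few beside the 1396 regions with exactly 2 hexamers, whose spacing is described next.

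One distance stood out among pairs of GA-centred hexamers in GA-only regions. Over the 1396 regions with exactly 2, the starts lay 49 bp apart in the median, and the most frequent distance was 12 bp, which leaves 6 bases between the hexamers. It was held by 55 pairs, or 3.94% (3.04 to 5.09), whereas 22 pairs were 11 bp apart and 27 were 13 bp apart. The distance was picked as the most frequent one, so its share has no test. In windows without a base marked as a repeat it was 4.52% (30 of 663). In flanking windows of all distal regions 12 bp was held by 10 of 542 pairs (1.85%, 1.01 to 3.36), and the most frequent distance there was 17 bp with 16 pairs (2.95%). In sets of regions that did not enter the choice, 12 bp led by few pairs. It was held by 13 of 542 pairs (2.40%, 1.41 to 4.06) in GA-only regions beyond 50 kb, where 12 pairs had 20 bp, and by 5 of 89 within 1 kb, where 4 had 7 bp. GC-centred pairs in GC-only regions had it in 17 of 555 cases (3.06%) and 30 bp in 16. With 1 GA- and 1 GC-centred hexamer it was held by 39 of 1712 regions (2.28%) and 13 bp by 34, and with 1 GA- and 1 TA-centred hexamer by 20 of 774 (2.58%) and 18 bp by 18. In TA-only regions it was held by 5 of 108 pairs, as was 51 bp. The intervals of all these sets, GA-only regions included, overlapped that of the flanks at 12 bp, and the share beyond 50 kb was below that of the flanks' own leading distance.

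The strands of the 55 pairs covered all 4 arrangements. Both hexamers read CAGATG on the plus strand in 11 pairs and on the minus strand in 18, the strands were plus then minus in 9, and minus then plus in 17. The pair of each arrangement with the highest mean rank is shown on the plus strand, with both hexamers in capitals.
plus then plus, plus strand, chr14:52060973-52061002: ggagaaCAGATGggtgaaCAGATGgcagtt
plus then minus, plus strand, chr12:24860624-24860653: gggatgCAGATGggcttcCATCTGtgcctt
minus then plus, plus strand, chr7:48749825-48749854: cctcaaCATCTGtctcaaCAGATGgcttgc
minus then minus, plus strand, chr4:62991489-62991518: agttagCATCTGtttcccCATCTGgtccca
The first lay between genes with Olfr221 the closest (ab1 score 1699), the second in an intron of Mboat2 (978), the third between genes with Zdhhc13 the closest (3015) and the fourth in an intron of Zfp618 (1994). All 3 antibodies had a peak in 20 of the 55 regions (36.4%, 24.9 to 49.6), against 24.7% of the regions with another spacing, a difference of 11.7 points (0.00280 to 25.1). The score ratios of 1.11 (0.810 to 1.51) for ab1, 1.11 (0.848 to 1.44) for ab2 and 0.869 (0.701 to 1.08) for ab3 had intervals that held 1.

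**Figure D2:**
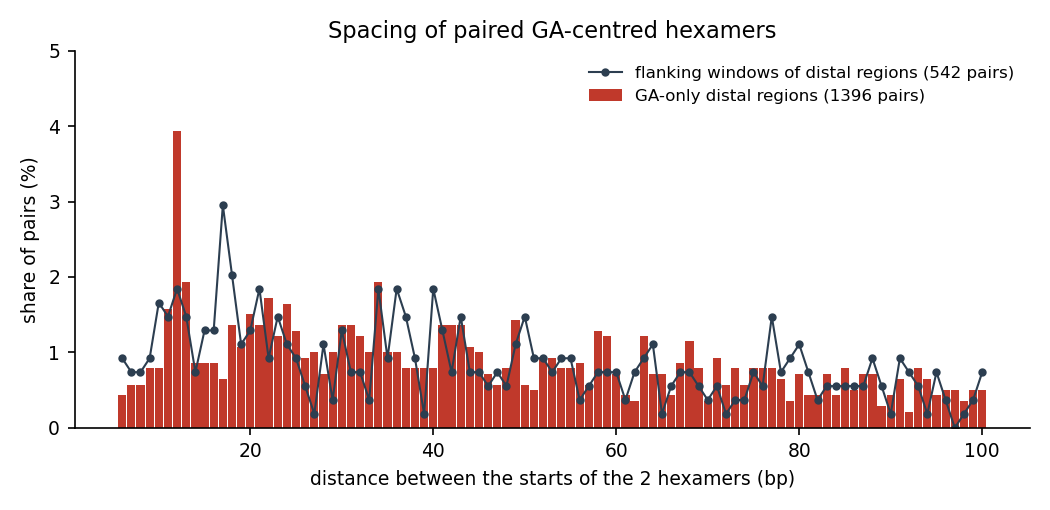
Share of pairs (%) by the distance in bp between the starts of 2 GA-centred hexamers, up to 100 bp. Bars show 1396 GA-only distal regions and the line shows 542 flanking windows. The bar at 12 bp (3.94%) stands above all other bars, and the line peaks at 17 bp.

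The hexamers leaned towards the middle of the regions, though weakly. Within 50 bp of the midpoint lay 59.4% of the GA-centred hexamers (58.4 to 60.5), 55.2% of the other E-boxes of the same windows and 53.4% of the GA-centred hexamers of the flanks, where the 195 possible places would give 51.8% if all were used alike. The GA-centred hexamers exceeded the other E-boxes by 4.19 points (2.53 to 5.84) and those of the flanks by 6.02 points (3.63 to 8.41). GC-centred hexamers in GC-only regions (59.4%) and TA-centred ones in TA-only regions (60.1%) did not differ from them within −1.80 to 1.83 and −3.63 to 2.22 points. The hexamer nearest the midpoint lay 35 bp away in the median. Regions whose only hexamer lay within 50 bp had lower scores than those with a hexamer farther out, at 0.879 times for ab1 (0.826 to 0.936) and 0.879 times for ab2 (0.831 to 0.930), while the ratio for ab3 was 1.01 (0.935 to 1.09). They also had all 3 antibodies less often, in 20.4% against 25.5% of cases (−5.16 points, −7.72 to −2.62). Among peaks with a score of at least 100 that difference was −0.869 points (−3.68 to 1.88). In introns, 49.8% (47.7 to 51.9) of 2228 single hexamers read CAGATG on the strand of the host transcript, an interval that held 50%.

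**Figure D3:**
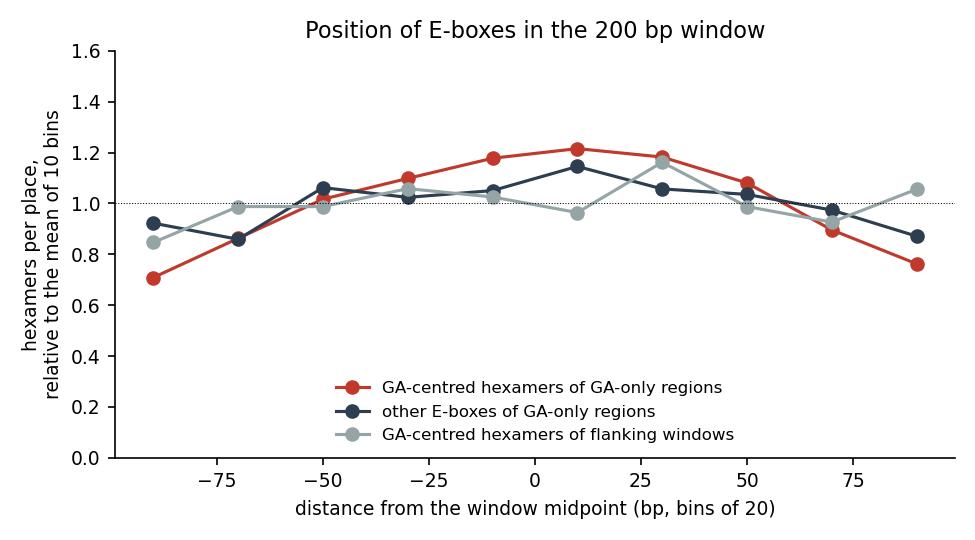
Number of hexamers per possible place in bins of 20 bp along the central window, relative to the mean of the 10 bins. The GA-centred hexamers of GA-only regions (red) rise from 29.9 per place in the outermost left bin to 51.4 in the bin from 0 to 20 bp, other E-boxes from 27.7 to 34.4, and flanking hexamers stand at 9 and 10.2.

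Words known from other transcription factors lay beside the GA-centred hexamers more often than in the flanks. Because words such as TTGGCA can run into CAGATG, each word was counted on either strand only where it shared no base with a GA-, GC- or TA-centred hexamer. TTGGCA, a core of the site of NFI factors, which act in radial glia and neurons of the cortex, was found in 20.2% of GA-only windows against 10.2% and 9.07% of the left and right flanks (McNemar's exact test against the left flank, two-sided, adjusted p = 1.99e-53 over 18 words). TGACAG, the word of MEIS and TGIF homeodomain factors, was found in 22.8% against 14.0% and 13.1% (exact test, adjusted p = 9.75e-36). The RFX word GTTGCCA was at 3.74% against 1.85% and 1.89% (exact test, adjusted p = 6.83e-10), the GC box GGGCGG at 4.85% against 2.51% and 2.87% (exact test, adjusted p = 4.06e-11), and the T-box word GGTGTGA, known from TBR1 and EOMES among others, at 4.38% against 2.87% and 2.90% (exact test, adjusted p = 2.36e-05). When words that touch an E-box are counted too, GA-only windows held TTGGCA in 21.3% and TGACAG in 27.6% of cases, against 21.5% and 26.5% of all distal windows.

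Other words were rarer in the centres. AGGTCA, the nuclear receptor word, was found in 6.03% against 11.7% and 11.9% of the flanks (exact test, adjusted p = 5.35e-28), and the SOX word ACAATG in 8.64% against 11.2% and 11% (exact test, adjusted p = 5.51e-06). The POU word ATGCAAA, at 4.13% against 4.23% and 4.02%, was not separable from the flanks (exact test, adjusted p = 0.82). GC content moved with these differences, at 49.3% in the centres and 44.8% and 44.7% in the flanks, as did the share of bases marked as repeats, at 10.1% against 24.6% and 24.2%. In the 820 regions whose centre and left flank held no such base, TTGGCA (20.7% against 12.7%), TGACAG (26.2% against 17.7%), GTTGCCA (4.27% against 1.71%) and AGGTCA (5.85% against 14.4%) still differed by McNemar's exact test (adjusted p = 8.31e-05, 0.000146, 0.0139 and 1.34e-07), and the other 14 words did not pass in this smaller set. Of these, the ratio of centre to left flank was 1.68 for the GC box (1.93 in all 6100 regions), 2.07 for the forkhead word TGTTTAC (1.39) and 1.79 for the homeodomain word TAATTA (1.18). It was 1.33 for the T-box word (1.53; exact test in the smaller set, adjusted p = 0.487), 1.09 for the EBF word CCCNNGGGA (1.47; adjusted p = 1) and 0.880 for the SOX word ACAATG (0.770; adjusted p = 0.670). The part of GC content was not tested.

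GC-only windows held the same words. TTGGCA was found in 22.9% of them, GA-only minus GC-only being −2.62 points (−4.41 to −0.868), and GGGCGG in 7.84%, a difference of −2.98 points (−4.09 to −1.93). TGACAG differed by 0.516 points (−1.29 to 2.29). Of the regions, 22.6% of GA-only regions with TTGGCA and 23.9% of those without it had all 3 (difference −1.27 points, −3.83 to 1.42). For AGGTCA the shares were 17.9% and 23.99% (−6.05 points, −9.81 to −1.67). A word in a window is a match of letters and not a measured binding site.

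**Figure D4:**
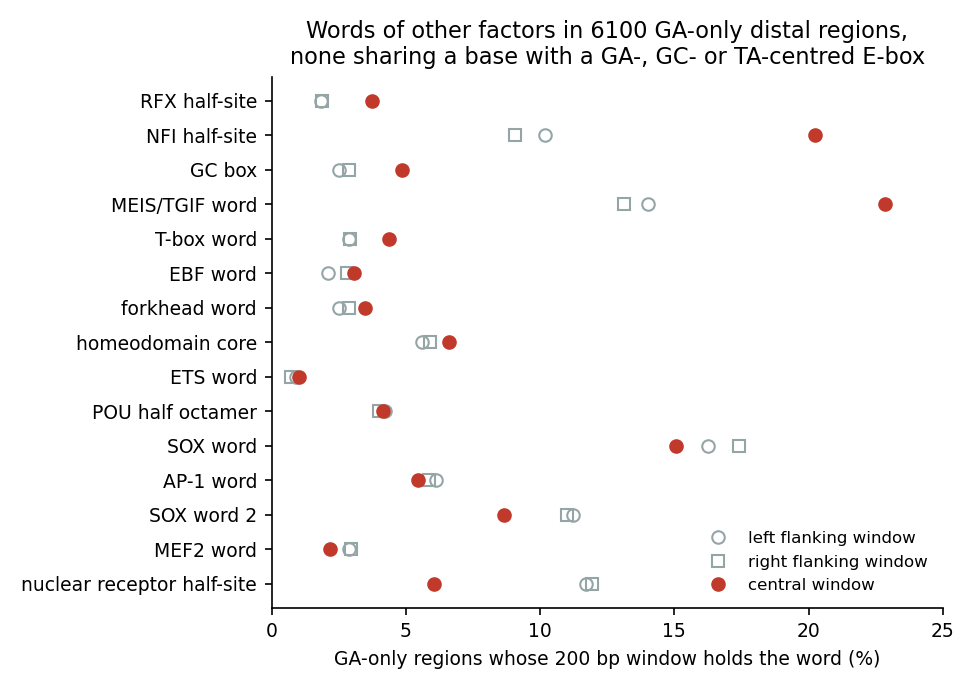
Share of the 6100 GA-only distal regions (%) whose 200 bp window held a word of another factor, in the centre (red) and in the left and right flanks (open symbols), for the 15 words found in at least 1% of the centres. The NFI word (20.2%) and the MEIS/TGIF word (22.8%) lie far to the right of their flanks, and the nuclear receptor word (6.03%) lies to the left of them.

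By annotation, 52.6% of GA-only regions had their midpoint in an intron, 43.1% between genes and 4.33% in an exon. The other distal regions had 54.5%, 40.3% and 5.22%, so that GA-only regions were more often between genes by 2.77 points (1.29 to 4.26). The closest TSS belonged to a protein-coding gene in 33.6% of cases and to a non-coding gene or pseudogene in the others. Scores in introns and between genes did not differ beyond their intervals (ratios of 0.994, 0.995 and 1.02 for ab1, ab2 and ab3), nor did those at 1 to 5 kb and at 20 to 50 kb from a TSS (1.02, 0.983 and 0.982).

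For the account of genes, each region was given to the protein-coding gene with the closest TSS, at any distance. Of 21911 protein-coding genes, 3723 (17%) were closest to at least 1 GA-only region, 1322 to 2 or more and 122 to 5 or more. Zfp608, which encodes a zinc finger protein, had the most with 19 of its 54 distal regions, followed by Galnt17, which encodes an N-acetylgalactosaminyltransferase, with 12 of 39. Mycn, a bHLH factor of proliferating progenitors, had 11 of 24 distal regions, and Efnb2, which encodes the Eph receptor ligand ephrin-B2, had 10 of 26. Each of Nars2, Pik3c3, Runx1t1, Rgma, Cd83 and Ubash3b had 9. The regions of Mycn lay between 1731 and 261260 bp from its TSS, 5 of 11 had all 3 antibodies, and their ab1 scores ran from 103 to 3067. The 19 of Zfp608 were weaker, with ab1 scores between 85.7 and 552, and 1 of them had all 3 antibodies. Since no limit was set on this distance, regions far from a gene are counted too, the farthest of Efnb2 lying at 1470251 bp.

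Against the 17% of all protein-coding genes, most genes of several lists for the developing cortex had a GA-only region by the closest TSS. The contrast was smaller among the 7093 genes closest to any distal region, of which 52.5% had one. On that base the lists ran from 65% (bHLH) to 91.7% (adhesion), apart from non-neural cell types (50%) and ribosomal proteins (0 of 1 gene). The lists were drawn up with earlier results of these data known, and the counts have no test. Of 15 deep-layer identity factors 13 had at least 1, among them Tshz3 (8), Nfib (7), Tle4 (4) and Etv1 (4). Of 15 upper-layer and callosal factors 11 had one, with Pou3f3 (4), Mef2c (3) and Lhx2 (2). Of 22 bHLH factors and their partners 13 had one, among them Tcf4 (7), which encodes an E protein partner, the inhibitors Id4 (6) and Id2 (3), the Notch target Hes1 (6) and Neurod2 itself (3). Of 55 axon guidance ligands and receptors 38 had one, with Efnb2 (10), the SLIT receptor Robo2 (7) and the semaphorin receptor Plxna4 (5). Of 29 cell adhesion molecules 22 had one, with Igsf21 (6), Pcdh7 (6) and Negr1 (6), and all 6 regions of Igsf21 had ab1 scores of 600.3 or more.

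In the other lists the counts were 13 of 19 radial glia and intermediate progenitor genes, 10 of 20 genes of Reelin signalling and radial migration, 15 of 30 synaptic and channel genes, 8 of 21 subpallial and interneuron genes, 5 of 20 genes of non-neural cell types and 0 of 20 cytosolic ribosomal protein genes. The lists differ in gene length. The median length was 348 kb for the synaptic list, of which 50% had a GA-only region, 297 kb for the adhesion list (75.9%), 8.69 kb for the progenitor list (68.4%), 3.39 kb for the bHLH list (59.1%) and 3.49 kb for the ribosomal list (0%), against 17.2 kb for all protein-coding genes. When only regions inside the gene body were counted, 9.48% of all protein-coding genes had one, and the lists had it in 19 of 29 adhesion genes (65.5%), 10 of 15 deep-layer factors (66.7%), 16 of 30 synaptic genes (53.3%), 29 of 55 axon guidance genes (52.7%), 4 of 15 upper-layer factors (26.7%), 5 of 20 Reelin and migration genes (25%), 3 of 20 genes of non-neural cell types (15%), 2 of 21 subpallial genes (9.52%), 1 of 22 bHLH genes (4.55%), 0 of 19 progenitor genes and 0 of 20 ribosomal protein genes. The bHLH and progenitor lists thus stood above the share of all genes by the closest TSS and below it by the gene body. The part of length in either count was not tested. Any NEUROD2 region, of whatever E-box class or distance, was closest to 9598 of the 21911 genes, to 15 of 15 deep-layer factors and to 6 of 20 ribosomal protein genes.

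Counted over regions instead of genes, GA-only regions made up 30.6% of the distal regions near any gene, and the intervals of all lists but 1 held that share. The share was 32.1% (27.2 to 37.4) near axon guidance genes, 32.1% (26.4 to 38.5) near adhesion genes, 35.7% (27.9 to 44.2) near deep-layer factors, 33.9% (25.7 to 43.2) near bHLH genes and 30.8% (22.2 to 40.9) near Reelin and migration genes. Near radial glia and progenitor genes it was 21% (14.2 to 29.98) and near upper-layer factors 22.0% (14.7 to 31.5), the interval of the progenitor list ending just below the overall share. Near synaptic genes it was 38.4% (28.8 to 48.9), near subpallial genes 32.4% (19.1 to 49.2), and near genes of non-neural cell types 50%, the highest, from 8 of 16 regions (28 to 72). The ribosomal list had 1 distal region, which was not GA-only.

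The study names a set of genes, most of them of migration, layer identity and axon growth, and the 10 reported here each had at least 1 GA-only region. The study drew most of these targets from the same peaks, and 30.6% of all distal regions are GA-only, so this count is no separate result. Cdk5r1, which encodes the p35 activator of CDK5, had 7 of its 12 distal regions, the SLIT receptor gene Robo1 5 of 13, Dab1 3 of 6, Fyn 3 of 11 and Fezf2 3 of 10. Bcl11b had 2 of 7, Cntn2 2 of 6, Lrp8 and Cux1 1 of 6 each, and Nhlh2 1 of 5. For each gene the region with the highest mean rank, in which a missing peak counts as 0, is shown by 30 bases round its hexamer nearest the midpoint, in the orientation of CAGATG (that of Cntn2 is the sixth of the strongest regions above). Some lay between genes and far from the TSS of the gene named, at 920329 bp for Robo1, 203150 bp for Bcl11b and 111039 bp for Dab1.
Cdk5r1, plus strand, chr11:80518683-80518712: caggaagtcattCAGATGctgatgccattg
Lrp8, plus strand, chr4:107817598-107817627: accgattcatgaCAGATGgagggaggggag
Dab1, minus strand, chr4:103508652-103508681: cagtttctgcagCAGATGaacaggcaggga
Fyn, minus strand, chr10:39393034-39393063: agccttattaaaCAGATGgagttaactaac
Fezf2, plus strand, chr14:12335200-12335229: cagcagaaataaCAGATGcccactacacac
Bcl11b, plus strand, chr12:107800468-107800497: acagttgctaagCAGATGtccccacaaaag
Cux1, plus strand, chr5:136603558-136603587: tcgcctgccaacCAGATGgtggaggcttgc
Nhlh2, plus strand, chr3:102024971-102025000: aagagaatgaccCAGATGtgatgtctagtc
Robo1, plus strand, chr16:71643352-71643381: cactttggggccCAGATGcttagctgatcc
G followed the hexamer in 3 of these 10 sites, those of Lrp8, Fyn and Cux1, against 56.8% of all GA-centred hexamers of GA-only regions.

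The Lrp8 site lay in an intron 15347 bp downstream of the TSS of this gene for a Reelin receptor, with scores of 3100 (ab1), 1529 (ab2) and 172 (ab3). The Cux1 site, 36323 bp upstream of the upper-layer factor's TSS, had 2855, 1709 and 358. The Cntn2 site, 48786 bp upstream in an intron of Nfasc, had 3100, 2771 and 826. Their mean score ranks, on a scale on which the lowest score of a library is near 0 and the highest is 100, ran from 91.7 to 99.2.

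The regions of the other genes differed among themselves. The 3 regions of Dab1, the adaptor of Reelin signalling, had ab1 scores of 101.3, 219.7 and 253.9, ab2 scores of 56.6 to 145, and no ab3 peak. The 3 regions of Fyn, the kinase that phosphorylates DAB1, had ab1 scores of 52.7, 117 and 139 and no ab3 peak either. At Fezf2, the subcerebral identity gene, a region 12881 bp downstream had scores of 1488, 450 and 106, and another, 40770 bp upstream, had 826, 818 and 74.4. The 7 regions of Cdk5r1 had ab1 scores from 52.3 to 1453, and ab3 had peaks of 67.6 and 68.4 in the 2 strongest, of which the stronger lay 41749 bp downstream in an intron of Myo1d. The 5 regions of Robo1 lay between 9753 and 920329 bp from its TSS without an ab3 peak, and the 2 highest ab1 scores were 1421 and 1522. The single region of Nhlh2, a neuronal bHLH gene, had 453, 199.8 and 51.8.

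**Figure D5:**
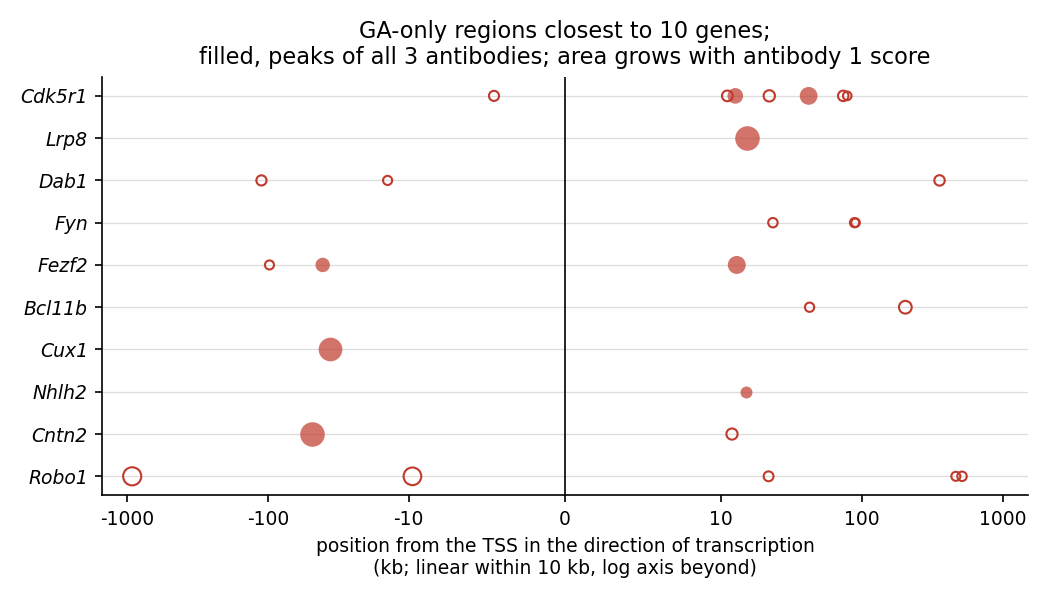
Position of each GA-only region from the TSS of the closest protein-coding gene (kb, linear within 10 kb and log beyond, downstream to the right) for 10 genes. Filled circles have peaks of all 3 antibodies and open circles of 2, and the area grows with the ab1 score. The filled circles of Lrp8, Cux1 and Cntn2 are the largest, and Dab1, Fyn, Bcl11b and Robo1 have open circles only.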

How the data were processed

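Chromatin of pooled E14.5 mouse cortices was precipitated with 3 NEUROD2 antibodies and 2 GFP control antibodies, 1 library each. The authors aligned single-end reads to mm10 with Bowtie, removed duplicate and multiply mapped reads and called peaks with MACS, the control being GFP from the antibody's host species. The deposited score of a peak is −10 log10 of its p-value (minimum 50, highest 3233.06). Read depth is not given by the peak lists, and GFP signal was not analysed here.

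Peaks sharing at least 1 bp were merged, and regions with 2 or more antibodies were kept. TSSs were those of the longest-span transcript of each gene (GENCODE M21), and sequence was that of RefSeq GRCm38.p6, which has the primary coordinates of mm10. A region took the highest score of each antibody. Its log10 was fitted on E-box class over all distal regions, antibody by antibody, with robust standard errors. Shares have Wilson and differences Newcombe 95% intervals. Words were tested by McNemar's exact test with Benjamini-Hochberg adjustment. Named regions were the 8 highest by mean score rank and the 2 nearest its median among regions with all 3 antibodies. Named genes were the 10 with most regions, up to 6 per list with 2 or more, and genes the study names (some are not reported here). Members and lists were chosen with earlier results of these data known. Alternatives covered score, overlap, midpoint, TSS set, window, covariates and each antibody left out. Region width, words apart from E-boxes, unmasked windows and the pair spacing were added after seeing the data. Python 3.11.15, numpy 2.4.6, scipy 1.17.1, statsmodels 0.14.6 and matplotlib 3.10.9 were used, and the fits were tested on simulated data.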

Additional observations from a re-analysis of the deposited data

How the results depend on the processing

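Of 214 alternative values, 148 kept their direction and their side of the threshold or moved little, 23 moved, 19 were weaker, 3 stronger and 21 changed direction. Differences below are percentage points for all 3 antibodies and log10 units for scores, and the causes were not tested. The intervals of the GC-only and no E-box differences that came to hold 0 stand in the report. Intervals that came to lie above 0 were those of ab1 against GC-only in 400 bp windows (0.00123 to 0.0398) and with region width (0.00637 to 0.0375). In 400 bp windows that of ab3 against TA-only did so too (0.00366 to 0.0775). With a peak score of at least 100 there were 3787 GA-only regions, 16.2% had all 3 antibodies, and 58.0% of hexamers lay within 50 bp. The share differences were then 0.373 (GC-only), −0.0510 (TA-only) and −1.22 (no E-box), and the score differences from GC-only were −0.00706 (ab1) and 0.00795 (ab2) and from TA-only −0.00209, −0.00368 and −0.00175. With the midpoint of the highest peak the no E-box difference of ab3 was −0.0274, and 58.0% lay within 50 bp. With protein-coding TSSs alone there were 3464 regions, 55.6% in introns, with share differences of 2.21, −0.176 and −1.49 and an ab2 difference from GC-only of 0.0205. With the TSSs of all transcripts 54.5% were in introns, and the TA-only differences were −0.0313 (share) and −0.00157 (ab2). In windows of 100 bp the share differences were 1.05 (GC-only) and −0.0690 (TA-only), the GC-only score differences −0.00402 (ab1) and 0.0133 (ab2), and 15.5% had 2 or more hexamers. In windows of 400 bp the share differences were −0.239 (TA-only) and −1.39 (no E-box), the GC-only differences 0.0205 (ab1) and 0.000576 (ab3), the TA-only difference of ab3 0.0406, and the no E-box differences −0.0353 (ab2) and −0.0436 (ab3). There 40.6% of hexamers lay within 50 bp and 41.2% of regions had 2 or more. The 2373 regions with no other E-box had all 3 antibodies in 22.3% and 2 or more hexamers in 29.7%, with share differences of 0.777 and −0.691 and score differences of −0.00757 (GC-only, ab1), 0.0180 (GC-only, ab2) and −0.00840 (TA-only, ab3). With distance and GC content as covariates the TA-only difference of ab3 was −0.00896. As differences of median ranks, ab2 against GC-only gave 1.87 and ab3 against no E-box −1.64. With region width as a covariate ab1 against GC-only gave 0.0219, and the no E-box differences were 0.152, 0.143 and 0.0493. Against the right flank 5 words were more frequent in the centres, and in unmasked windows apart from E-boxes 3 were more and 1 less frequent. Genes of the lists with a GA-only region inside the gene body numbered 89.

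With each antibody left out in turn, GA-only regions numbered 1462 (without ab1) to 6079 (without ab3), and 1468 without ab2, since both remaining antibodies then need a peak. The GC-only differences ran from −0.0157 (without ab2) to 0.00466 for ab1, from 0.00162 (without ab1) to 0.0225 for ab2 and from −0.0107 to −0.00103 for ab3. The TA-only differences ran from −0.00583 (without ab2) to 0.0112 for ab1, and the no E-box differences of ab3 from −0.0428 to −0.0213 (without ab1). Hexamers within 50 bp ran from 55.1% to 59.4%, regions with 2 or more hexamers from 27.9% to 31.4%, and the excess of G after the hexamer from 27.5 to 30.8 points.

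The share with all 3 antibodies has no value when an antibody is left out, and the share within 50 bp was not run for 100 bp windows. No paired analysis was possible because all peak lists are of 1 condition and GFP has no peak list of its own here. The peak lists carry no read depth, and library depth was not used here, so a missing peak of ab3, the library with the fewest peaks, does not show absent binding.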

Other observations

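The 8 regions with 9 or more GA-centred hexamers were picked out after their values were seen. Their ab1 scores ran from 130 to 1657, and the most common distance between neighbouring hexamers differed from one region to another, from 9 to 22 bp. The region with 12 hexamers, on chromosome 15, was wholly marked as repeat in the reference, had an ab1 score of 452 and lacked an ab3 peak. No explanation for these arrays was tested.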
